A study of Mus musculus with 12 samples.

Results

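The cytoplasmic ribosomal protein genes were described across 4 groups of sorted mouse splenic CD4 T cells. They were chosen by gene name alone (Rpl and Rps symbols with a number, Rplp0, Rplp1, Rplp2, Rpsa and Fau, without S6 kinases and pseudogene names). The rule uses no measured value, but it was chosen with earlier results of these data known. The rule found 82 genes, 49 of the large (60S) and 33 of the small (40S) subunit. They formed 81 of the 23254 features of the series, because some shared an entry with another gene. Of these, 78 reached the filter on low values and were tested, and Rpl3l, Rpl10l and Rpl39l did not.

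Cells positive for CD4, CXCR5 and PD-1 are called TFH (T follicular helper) cells, and CD4 cells negative for CXCR5 and PD-1 non-TFH cells. All mice were C57BL/6 and carried floxed alleles of Ets1, a lymphocyte transcription factor. The WT groups were Ets1 flox/flox without Cre, and the groups labelled cKO were CD4-cre Ets1 flox/flox, in which Cre is driven by Cd4 regulatory sequences and is active in T cells from the thymus on. Each of the 4 groups (WT non-TFH, cKO non-TFH, WT TFH, cKO TFH) held 3 poly(A)-selected libraries. The labels used here state neither age nor sex. The labels do not say that replicates came from separate mice, so p-values measure the spread between these libraries, which may be technical.

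Ribosomal proteins assemble with ribosomal RNA into the subunits that translate mRNA, and cells make them in nearly equal numbers. Their mRNAs are among the most abundant of lymphocytes and typically begin with a cytosine followed by a run of pyrimidines, the terminal oligopyrimidine (TOP) motif, through which mTOR signalling and LARP1 control their translation and stability. Several ribosomal proteins have a second gene copy with its own expression pattern.

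The pyrimidine start is the sequence feature these mRNAs are known for, and it is shown for members described below. RefSeq's promoter windows (build GRCm38.p6, the mm10 assembly) covered 61 of the 82 members, from 250 bases before to 50 bases after the annotated start. At the annotated base, 13 of 61 (21.3%) had a C followed by at least 4 pyrimidines, against 2.5% of all 32851 windows. Within 5 bases of it 28 of 61 (45.9%) had one, against 18.3%. The first 20 bases are printed 5′ to 3′, with the leading C and its pyrimidine run in capitals. The last line is the second copy of Rps27, which has no such run at the annotated base and is among the 28 with one within 5 bases.
Fau (chr19:6057947-6057966, + strand): CTTCCTCTTTCTTgactcca
Rps6 (chr4:86857348-86857367, − strand): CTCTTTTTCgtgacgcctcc
Rpl38 (chr11:114668580-114668599, + strand): CTTTCCCCgttctcttcggt
Rplp2 (chr7:141447651-141447670, + strand): CTTTCgccgccggacgccgc
Rps27 (chr3:90213629-90213648, − strand): CCTTTCCggcggtgacgacc
Rps27l (chr9:66946086-66946105, + strand): gcctctatcccggaagttgc

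ETS family factors bind a GGAA core, and the extended form CCGGAAG was searched on both strands of the windows. It was found in 24 of 61 members (39.3%) and in 8.9% of all windows. GGGCGG, the SP1 box, was in 36 members (59.0%) against 35.7% of windows, and TATAAA in 6 (9.8%) against 13.6%. Matches of different motifs were counted apart and could overlap. The 250 bases upstream of 2 members with a match are shown, because their changes between WT TFH and non-TFH cells were unlike each other. Rps21, a 40S protein chosen after its values were seen, fell in WT TFH cells, and Rpl41, a very short basic 60S protein, did not pass the test there. Capitals mark CCGGAAG, which begins 88 and 26 bases before the start of Rps21 and 56 bases before that of Rpl41.
Rps21 (chr2:180257129-180257378, + strand): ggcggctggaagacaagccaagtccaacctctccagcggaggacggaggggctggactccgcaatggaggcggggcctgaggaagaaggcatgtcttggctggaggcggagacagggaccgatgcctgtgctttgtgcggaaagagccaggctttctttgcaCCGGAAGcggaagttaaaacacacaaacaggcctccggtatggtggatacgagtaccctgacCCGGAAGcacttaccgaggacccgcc
Rpl41 (chr10:128549169-128549418, − strand): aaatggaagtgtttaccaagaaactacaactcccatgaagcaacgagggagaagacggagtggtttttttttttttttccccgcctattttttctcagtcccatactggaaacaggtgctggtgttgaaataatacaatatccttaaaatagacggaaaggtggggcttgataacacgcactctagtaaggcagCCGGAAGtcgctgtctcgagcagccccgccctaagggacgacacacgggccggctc

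Estimated depths were 11.9 to 15.5 M fragments per library. Levels were deposited as FPKM, fragments per kilobase of transcript scaled to the fragments of the library. Mean Ets1 was 406 FPKM in WT non-TFH, 399.6 in cKO non-TFH, 196 in WT TFH and 253 in cKO TFH cells, so it was not lower in the libraries labelled cKO. A gene-level value does not separate deleted from remaining exons, so it checks neither the deletion nor the labels, and every direction below is that of the libraries labelled cKO. All 8 tested TFH markers were higher in TFH than in non-TFH cells in both genotypes. Unnamed loci numbered 6803 to 8549 in the non-TFH and 7855 to 25171 in the TFH libraries, with the most in WT TFH replicate 3. Genes known from other cells were also measured. The summed level of 13 macrophage genes was 40.3 to 86.7 FPKM in WT non-TFH, 126 to 168 in cKO non-TFH, 1560 to 2356 in WT TFH and 701 to 1075 in cKO TFH libraries. That of 9 B cell genes was 1.28 to 3.07, 2.52 to 3.16, 67.3 to 74.7 and 40.4 to 44.9 FPKM. CD8 T and NK cell genes summed to 28.6 to 31.2, 177 to 204, 15.9 to 183 and 164 to 246 FPKM, and plasma cell genes to 19.96 to 20.9, 48.0 to 66.4, 50.3 to 96.9 and 86.5 to 117, in the same order of groups. In these bulk samples fewer cells of a type and less RNA per cell cannot be told apart.

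Levels are FPKM scaled between libraries by the median ratio. Shares are of the summed FPKM of the tested features, with small RNA names and unnamed loci left out. The tested members made up 33.9% ± 0.709 of this sum in WT non-TFH cells, 27.3% ± 0.862 in cKO non-TFH, 11.4% ± 0.569 in WT TFH and 13% ± 0.764 in cKO TFH cells (SD, n = 3 per group). The median member lay between 2066 and 2146 FPKM in the WT non-TFH libraries, between 1473 and 1641 in cKO non-TFH, between 530 and 571 in WT TFH and between 675 and 784 in cKO TFH. The 4 groups did not overlap in this median. The 100 highest tested features of a library were also taken without small RNA names. Of them 69 to 74 were members in the non-TFH libraries and 32 to 40 in the TFH libraries.

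**Figure D1:**
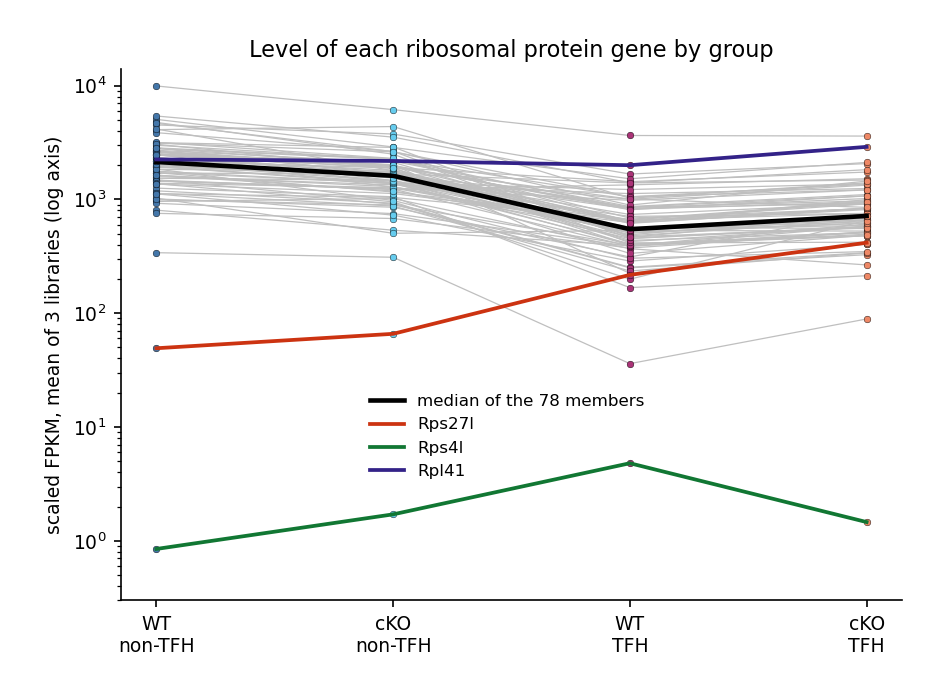
Mean scaled FPKM (log axis) of each of the 78 tested members in the 4 groups, 1 point per member and group (mean of 3 libraries, 2 where a value was missing), grey lines joining a member's points and the black line the median member. Most members are lowest in WT TFH cells, Rpl41 (violet) stays high in all groups, and Rps27l (red) and Rps4l (green) lie far below the rest in non-TFH cells.

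Among the members the joint entry of Rps27 with Rps27rt and Rps29 were among the 3 with the highest mean levels. Rps27, a zinc-finger protein of the 40S subunit, stood at 9935 ± 1185 FPKM in WT non-TFH cells, and Rps29, another zinc-binding 40S protein, at 5408. The lowest were Rpl10l, Rpl3l and Rpl39l. Rpl10l, a testis-expressed copy of Rpl10, was listed at 0 in 11 libraries. Rpl3l, the striated-muscle copy of Rpl3, stayed under 1 FPKM in every library. Rpl39l, another testis copy, was at 0.331 FPKM in WT non-TFH and 1.65 ± 1.14 in cKO TFH cells.

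In WT mice the ribosomal protein genes stood lower as a group in TFH cells. Of 78 tested members 72 fell and 2 rose, with a median log2 change of -1.70 (3.24-fold lower). Among all 11114 tested features 67.6% passed the same test, 35.5% higher and 32.1% lower, and their median change was 0.06. The 3 TFH libraries lay below all 3 non-TFH libraries for 73 members and above them for 2, against 34.6% and 37.2% of all tested features. Both subunits moved alike, with medians of -1.62 over 46 features of the 60S and -1.84 over 32 of the 40S subunit. The direction of the median held under other scalings, at -1.33 without scaling and -1.05 after quantile normalization. The test was limma on log2(scaled FPKM + 1), with p-values adjusted over all tested features, and errors of log2 changes are standard errors (SE). Without WT TFH replicate 3, 71 members fell (median -1.63), and likewise 71 without WT non-TFH replicate 1 (median -1.71). The macrophage genes had a median change of 5.06 here, the tested B cell genes 2.77 and the plasma cell genes 1.93. The dendritic cell genes had 1.98, the CD8 T and NK cell genes 0.41 and the 2 tested erythroid genes 1.3. In the other direction, the 3 tested neutrophil genes had a median of -2.80 (2 fell) and the 1 tested platelet gene changed by -1.13. The part of all these genes in the result was not tested.

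Size differed widely between members: 30 fell by more than 2 log2 units and 6 by more than 3, which was not counted over all tested features. Rpl12, a 60S protein of the stalk base (chromosome 2, 32961712 to 32964045, mm10), fell most. It read 4787, 4711 and 4747 FPKM in the WT non-TFH libraries and 435, 423 and 387 in the WT TFH libraries. The groups lay far apart, and the log2 change was -3.51 ± 0.08 (adjusted p = 4.3e-11). Rpl5, which binds 5S ribosomal RNA and, when free, the p53 regulator Mdm2, read 1898, 2716 and 2921 FPKM in WT non-TFH and 248, 166 and 259 in WT TFH libraries. Its log2 change was -3.48 ± 0.27 (adjusted p = 9.1e-07), with a wider spread among the non-TFH libraries than for Rpl12. Rps24, Rps15a and Rpl22 followed with changes of -3.42, -3.34 and -3.20, and Rps15 with -3.07.

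The stalk proteins, which recruit translation factors to the 60S subunit, fell together. Rplp0, the stalk's anchor (chromosome 5, 115559467 to 115563729), read 2781, 2856 and 2863 FPKM in WT non-TFH and 742, 829.9 and 640.1 in WT TFH libraries, a log2 change of -1.95 ± 0.10. Rplp1 changed by -2.0 ± 0.18 and Rplp2 by -1.77 ± 0.08. Among proteins of the 40S head and platform, Rps3, at the mRNA entry site, changed by -2.59 ± 0.19, Rps14 by -1.41 ± 0.10 and Rps19, the gene most often mutated in Diamond-Blackfan anaemia, by -1.02 ± 0.14. Quantile normalization put Rps19 at 0.03, so its fall depends on the scaling.

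Rps6, the substrate of S6 kinases, read 2448, 2525 and 2609 FPKM in WT non-TFH and 849, 845 and 773 in WT TFH libraries, without overlap, and changed by -1.62 ± 0.11. Rpl11, the partner of Rpl5 in the 5S particle, changed by -2.08 ± 0.10. The fusion genes also fell: Rps27a, made as a fusion with ubiquitin, by 1.92 and Fau, fused to a ubiquitin-like protein, by 1.75 on the log2 scale. Rpsa, the laminin-receptor precursor, changed by -1.12 ± 0.22, and Rpl38, a small 60S protein, by -1.24 ± 0.10.

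Among the 4 members that did not pass were Rpl13, Rpl15 and Rpl41. Rpl41 (chromosome 10, 128548110 to 128549168) read 2245, 2259 and 2234 FPKM in WT non-TFH and 2064, 2034 and 1900 in WT TFH libraries. The groups did not overlap, yet the change of -0.17 ± 0.08 did not pass (adjusted p = 0.064), and its sign turned with the scaling, to 0.20 without scaling and 0.84 after quantile normalization. Without cKO TFH replicate 1 or 3 the fall of Rpl41 passed (adjusted p = 0.036 and 0.028). Rpl13 changed by -0.14 ± 0.09 and likewise turned, to 0.22 and 0.76. Rpl15 varied too much between libraries, at 804 to 1465 FPKM in WT non-TFH and 223 to 913 in WT TFH libraries.

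In cKO mice the members were again lower in TFH cells, by less. Of 78 members 61 fell and 3 rose, with a median log2 change of -0.98 (1.98-fold lower), -0.68 without scaling. Among all tested features 67.1% passed, 33.5% higher and 33.5% lower, with a median of 0.02. Quantile normalization gave 58 lower and 9 higher members. The TFH libraries lay below all non-TFH libraries for 62 members and above them for 4, against 36.7% and 36.9% of all tested features. All 61 that fell had also fallen in WT mice. This overlap was not counted over all tested features, of which 32.1% fell in WT and 33.5% in cKO mice. Changes below -2 were seen for 6 members, and 1 of these, the uneven Rps15a, did not pass. The share of all tested features below -2 was not counted either. Across the 78 members the changes of both genotypes, which share no library, had a Pearson correlation of 0.876 and a Spearman correlation of 0.857, given as a description since all come from a single fit. The macrophage genes had a median change of 2.0 in cKO mice, the tested B cell genes 1.71, the plasma cell genes 0.67 and the dendritic cell genes 0.535. The CD8 T and NK cell genes had -0.14 and the 3 tested neutrophil genes -2.14. The part of these genes in the result was not tested.

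Rpl12 read 2639, 2471 and 2388 FPKM in cKO non-TFH and 397, 401 and 465 in cKO TFH libraries, and again had the largest fall, -2.57 ± 0.08. Rpl5 followed at -2.37 ± 0.27 and Rps24 at -2.36 ± 0.32, then Rps15 at -2.19 and Rpl31 at -2.10. At the other end, Rpl41 rose. It read 2317, 2117 and 2097 FPKM in cKO non-TFH and 2617, 2863 and 3211 in cKO TFH libraries, and every TFH library was higher (0.41 ± 0.08, adjusted p = 0.00044). Rpl13 rose by 0.32 ± 0.09 (adjusted p = 0.0081). Rps19 was at -0.03 ± 0.14 in cKO mice and did not pass, with 1325, 1265 and 1600 FPKM in non-TFH and 1197, 1339 and 1571 in TFH libraries, which overlap. After quantile normalization Rps19 was higher in TFH cells (0.49, adjusted p = 0.004).

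**Figure D2:**
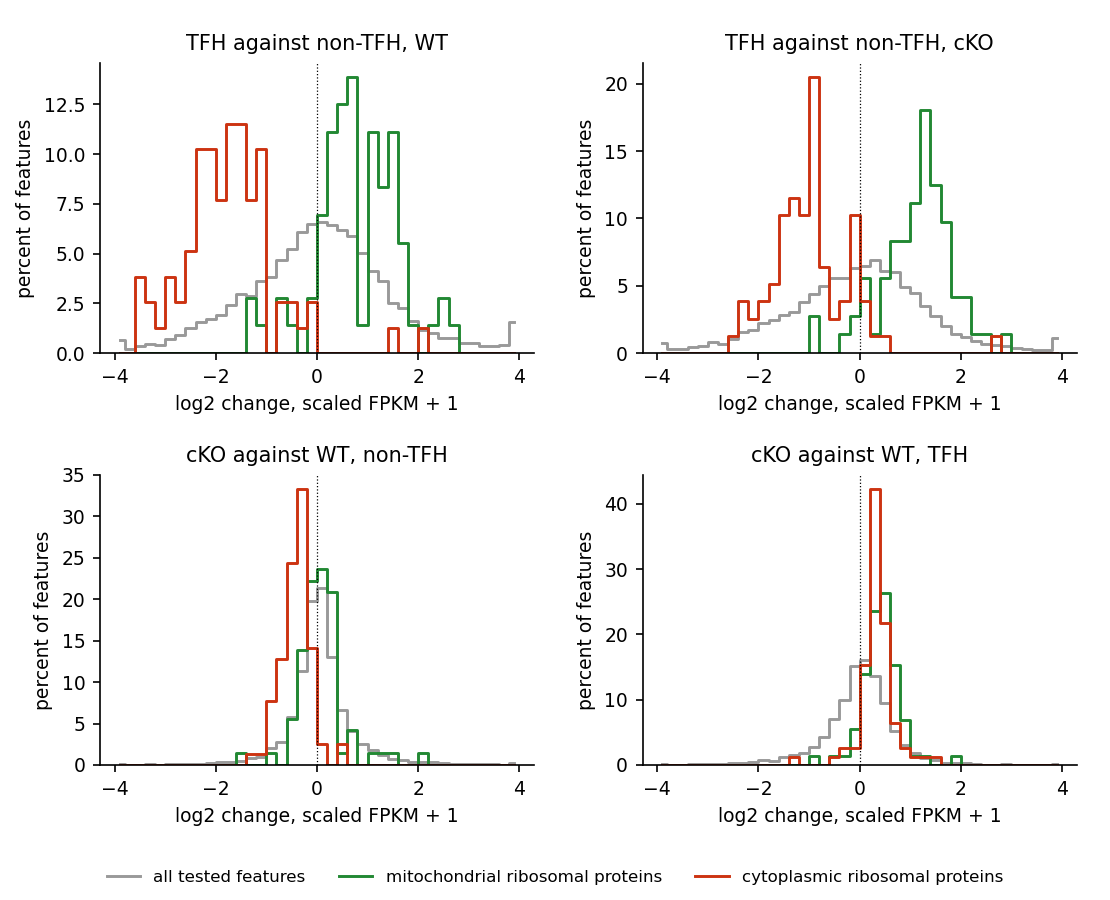
Histograms of the log2 change (x axis, log2(scaled FPKM + 1), values beyond the axis drawn in the end bins) in 4 comparisons, as percent of 78 cytoplasmic ribosomal protein features (red), 72 mitochondrial ribosomal protein genes (green) and 11114 tested features (grey). The red curve lies left of the grey in both TFH against non-TFH panels (medians -1.70 and -0.98) and in cKO against WT non-TFH cells (-0.38), and right of it in cKO against WT TFH cells (0.35).

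In TFH cells the members were higher in the libraries labelled cKO than in WT under the median-ratio scaling. Of 78 members 46 rose and 1, Rps4l, fell, with a median log2 change of 0.35 (1.27-fold). Among all tested features 30.7% passed, 15.7% higher and 15.1% lower, with a median of 0.04. The cKO libraries lay above all WT libraries for 56 members and below them for 1, against 20.1% and 17.8% of all tested features. The 60S and 40S medians were 0.34 and 0.36. Without WT TFH replicate 3, 32 rose and the fall of Rps4l did not pass (median 0.31). This result depended on processing. Quantile normalization, which gives every library the same distribution of values, left 14 of 78 members higher and 4 lower, with a median of 0.11. All tested features then had a median of 0.046. The share of them that passed in that run was not counted, so no excess of members is shown there. Array weights left 29 higher. The 13 macrophage genes had a median change of -2.39 and the 7 tested B cell genes -0.50 in this comparison, while the CD8 T and NK cell genes had 0.86, the plasma cell genes 0.25 and 5 tested dendritic cell genes -1.02, and their part in the result was not tested.

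Rps27l, described below, had the largest rise that passed. Rpl21, Rpl37 and Rpl22 had larger positive changes that did not pass (1.53, 1.22 and 1.12). Of the other members that rose, Rps26, a 40S protein at the mRNA exit channel (chromosome 10, 128624529 to 128626506), read 680, 626 and 572 FPKM in WT TFH and 971, 1001 and 1018 in cKO TFH libraries. The groups did not overlap, and the change was 0.67 ± 0.07 (adjusted p = 4.4e-05). Rpl14, a 60S protein (chromosome 9, 120571517 to 120574653), read 443, 385 and 348 in WT and 599, 595 and 630.4 FPKM in cKO libraries, again without overlap (0.64 ± 0.10, adjusted p = 0.00063). Rpl10, the late-joining 60S protein at the tRNA channel, rose by 0.62 ± 0.07 and Rpl41 by 0.53 ± 0.08.

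Rpl5 had a larger but less certain change, 0.82 ± 0.27 (adjusted p = 0.039). It read 248, 166 and 259 FPKM in WT and 290.4, 344 and 588 in cKO TFH libraries, so that cKO replicate 3 stood apart. Rpl5 did not pass when any of 8 single libraries was left out, 3 of them WT TFH replicates 1 and 2 and cKO TFH replicate 3 (adjusted p = 0.053, 0.12 and 0.1). The others were cKO TFH replicate 2 (adjusted p = 0.054), WT non-TFH replicate 2 (0.053) and cKO non-TFH replicates 1 to 3 (0.058, 0.055 and 0.056). Of the 47 members called in TFH cells, 31 were called with each library left out in turn.

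The stalk showed smaller rises. Rplp0 read 742, 829.9 and 640.1 FPKM in WT and 850.1, 860.3 and 1034 in cKO TFH libraries, a change of 0.31 ± 0.10 (adjusted p = 0.029) that did not pass without WT TFH replicate 1 or 3 or cKO TFH replicate 3 (0.057, 0.1 and 0.11). Rplp2 changed by 0.29 ± 0.08 (adjusted p = 0.016), which did not pass without WT TFH replicate 3 (0.061) or cKO TFH replicate 3 (0.06), and Rplp1 by 0.45 ± 0.18 (adjusted p = 0.079). For Rps6, Rps3, Rps14 and Rps19 the changes were 0.20, 0.19, 0.20 and 0.16, and none passed. Rps6 passed without cKO non-TFH replicate 1 (adjusted p = 0.047), as did Rplp1 (0.04), which also passed without cKO non-TFH replicate 3 (0.035). Rpl12, the member with the largest difference between cell types, was at 0.02 ± 0.08 and did not pass (adjusted p = 0.9), with 435, 423 and 387 FPKM in WT and 397, 401 and 465 in cKO TFH libraries, and lower in cKO after quantile normalization (-0.27).

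In non-TFH cells the direction under the same scaling was the opposite. Of 78 members 51 fell in the libraries labelled cKO and 1, Rps27l, rose, with a median log2 change of -0.38 (1.3-fold lower). Among all tested features 20.4% passed, 11.8% higher and 8.59% lower, with a median of 0.03. The cKO libraries lay below all WT libraries for 60 members and above them for 1, against 23% and 29.2% of all tested features. The 60S median was -0.34 and the 40S median -0.49. Quantile normalization left 7 of 78 members lower and 6 higher, with a median of -0.05. All tested features then had a median of 0. The share of them that passed in that run was not counted, so no excess of members is shown there. Of the 52 calls 38 held with each library left out in turn. The macrophage genes had a median change of 0.73 here, the 6 tested CD8 T and NK cell genes 1.68 (3 rose and 1 fell) and the 4 tested plasma cell genes 1.34 (3 rose), and their part in the result was not tested.

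Rps3 (chromosome 7, 99477897 to 99483709) had the largest fall that passed, while Rps15a and Rpl15 varied too much (-1.38 and -1.03). It read 1505, 2177 and 1876 FPKM in WT and 723, 1264 and 946 in cKO non-TFH libraries, which vary but do not overlap (-0.94 ± 0.19, adjusted p = 0.0044). Rpl12 read 4787, 4711 and 4747 in WT and 2639, 2471 and 2388 FPKM in cKO libraries, the most even of the falls named here (-0.93 ± 0.08, adjusted p = 4e-06). Rps16, a 40S head protein whose tail reaches the decoding site, read 2292, 2449 and 2330.0 in WT and 1320.0, 1166 and 1362 FPKM in cKO libraries (-0.88 ± 0.10, adjusted p = 4.2e-05). Rps19 (chromosome 7, 24884714 to 24889802) read 2105, 2686 and 2651 in WT and 1325, 1265 and 1600.0 FPKM in cKO libraries (-0.83 ± 0.14, adjusted p = 0.0011).

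Rplp0 fell from 2781, 2856 and 2863 FPKM to 1687, 1593 and 1626, also without overlap (-0.79 ± 0.10, adjusted p = 0.00011). Rpl23, a 60S protein at the subunit interface, fell by 0.86 on the log2 scale with 2 values in WT, and did not pass without WT non-TFH replicate 1 (adjusted p = 0.075). Rps6 fell by 0.65 ± 0.11 on the log2 scale, with cKO libraries at 1977, 1518 and 1379 FPKM. Rps27 with Rps27rt fell by 0.69 and Rps27a by 0.47 on the log2 scale. The changes of Rplp1, Rpl41, Rpl5, Fau and Rpsa were 0.07, -0.05, -0.29, -0.08 and -0.25, none of which passed. Rpl41 was higher in cKO after quantile normalization (0.41, adjusted p = 0.012).

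The difference between both cKO changes was tested as an interaction. It passed in 63 of 78 members, with 62 changed more towards higher in TFH cells and 1, Rps4l, more towards lower, and a median of 0.75. Among all tested features 17.5% passed, 6.83% higher and 10.6% lower, with a median of 0.005. Quantile normalization left 8 members, all higher (median 0.16), beside a median of 0.048 over all tested features. Of the members, 33 rose in TFH and fell in non-TFH cells, and 1, Rps27l, rose in both. A further 12 rose in TFH cells and passed no test in non-TFH cells, and 18 fell in non-TFH cells and passed none in TFH cells. Joint calls were not counted over all tested features, of which 15.7% rose with cKO in TFH and 8.59% fell in non-TFH cells. Among members that passed towards higher, Rpl14 had the largest interaction, 1.22 ± 0.14 (adjusted p = 0.00016), with all 3 cKO libraries lower in non-TFH and all 3 higher in TFH cells. Across the 78 members the sizes of both changes had a Pearson correlation of -0.037 and a Spearman correlation of 0.128, from groups that share no library, given as a description. In the interaction the 13 macrophage genes had a median of -3.11 (11 lower), the 4 tested plasma cell genes -1.88 (3 lower) and the 5 tested dendritic cell genes -1.56 (1 lower). The B cell genes had -0.47, the CD8 T and NK cell genes -0.22 and the 3 tested neutrophil genes 0.665. The part of these genes in the result was not tested.

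**Figure D3:**
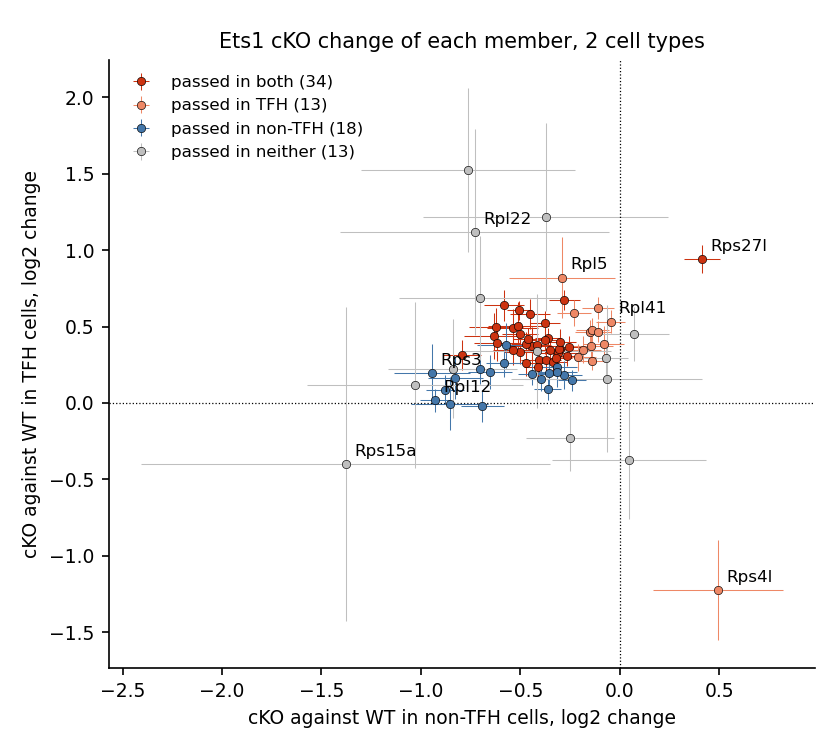
log2 change of cKO against WT in non-TFH cells (x axis) and in TFH cells (y axis) for each of 78 members, with SE as bars and colour by which tests passed (34 both, 13 TFH, 18 non-TFH, 13 neither). Most points lie in the upper left, higher in cKO TFH and lower in cKO non-TFH cells; Rps27l lies in the upper right and Rps4l in the lower right.

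Among the second copies, Rps27l and Rps4l had changes of other signs than their partners in most but not all comparisons. Rps4l and Rps4x were both negative in TFH against non-TFH cells of cKO mice (-0.13 and -1.61). Rps27l and the Rps27 entry both had positive interactions (0.52 and 0.67). Rps27l, a copy of Rps27 that p53 is known to induce (chromosome 9, 66946118 to 66949509), read 48.0, 53.0 and 46.7 FPKM in WT non-TFH and 63.6, 69.3 and 64.9 in cKO non-TFH libraries. In TFH libraries it read 238, 196 and 217 FPKM in WT and 389, 416 and 445 in cKO. The 4 groups did not overlap and stood in the order WT non-TFH, cKO non-TFH, WT TFH, cKO TFH. Rps27l rose by 2.12 ± 0.09 from non-TFH to TFH cells in WT (adjusted p = 4e-09) and by 2.64 ± 0.09 in cKO mice (9.3e-10). With cKO it rose by 0.94 ± 0.09 in TFH (2.1e-05) and by 0.42 ± 0.09 in non-TFH cells (0.007), and these 4 calls held under each alternative run. Its interaction of 0.52 ± 0.13 (adjusted p = 0.016) did not pass after quantile normalization.

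The partner entry, Rps27 with the near-identical Rps27rt, read 8754, 9927 and 11120.0 FPKM in WT non-TFH, 6942, 5538 and 5980.0 in cKO non-TFH, 3586, 3903 and 3448 in WT TFH and 3475, 3318 and 4016 in cKO TFH libraries. It moved against Rps27l between cell types, by -1.44 ± 0.11 in WT and -0.77 ± 0.11 in cKO mice, and was at -0.02 ± 0.11 with cKO in TFH cells. Even in cKO TFH cells, Rps27l at 417 ± 27.5 FPKM stayed far below Rps27 at 3603 ± 366 (per length, SD, n = 3).

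**Figure D4:**
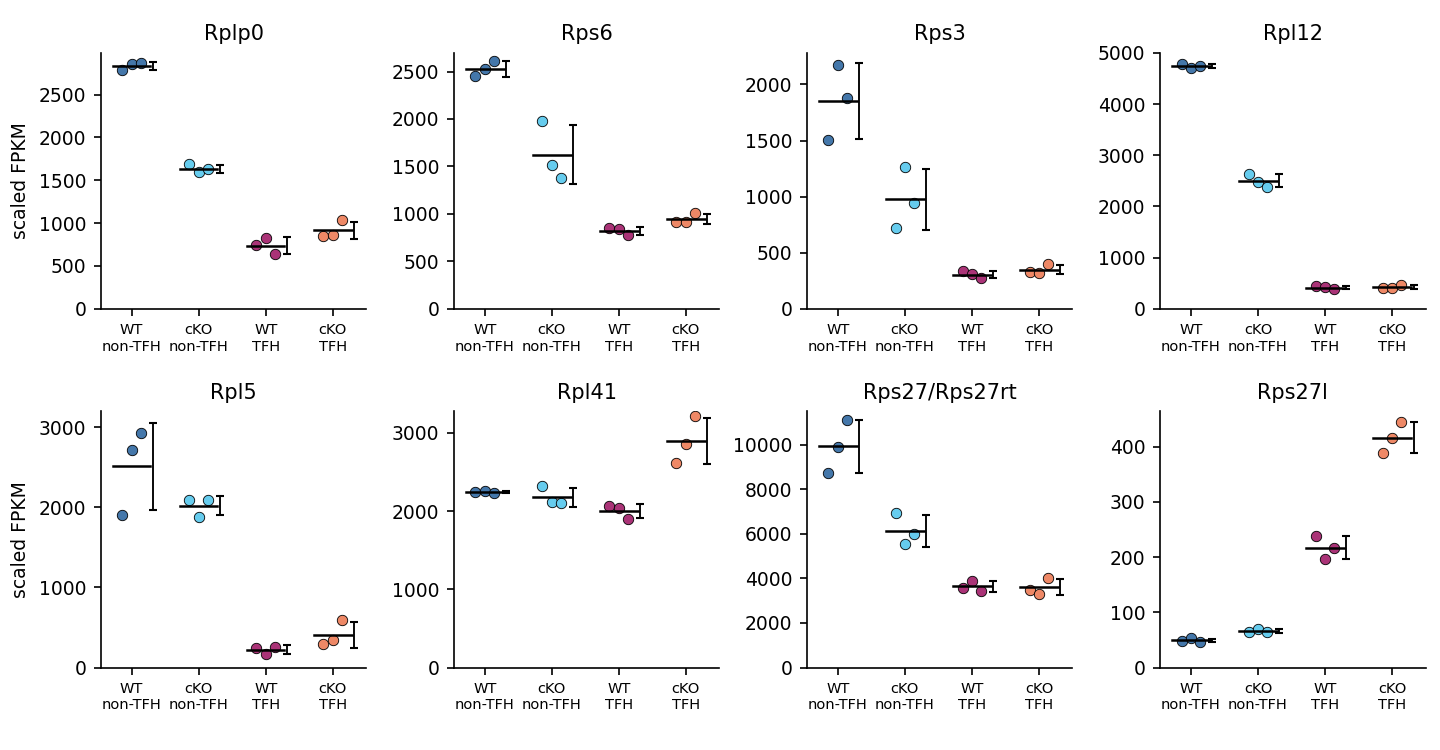
Scaled FPKM (linear axes from 0) of 8 members in the 12 libraries, 3 points per group, with the group mean as a line and SD as a bar beside it. Rplp0, Rps6, Rps3, Rpl12, Rpl5 and Rps27 with Rps27rt are highest in WT non-TFH cells, Rpl41 lies within 1900 to 3211 FPKM, and Rps27l is highest in cKO TFH cells.

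Rps4l, an intron-poor autosomal copy of the X-linked Rps4x (chromosome 6, 148354656 to 148355596), was near the filter. It read 0.972, 0.895 and 0.677 FPKM in WT non-TFH, 1.52, 0.847 and 2.76 in cKO non-TFH, 3.97, 3.16 and 7.28 in WT TFH and 1.24, 0.788 and 2.35 in cKO TFH libraries. The WT TFH libraries lay above all others. It rose by 1.59 ± 0.33 in WT TFH against non-TFH cells (adjusted p = 0.001) and fell by 1.22 ± 0.33 on the log2 scale with cKO in TFH cells (adjusted p = 0.014). The latter did not pass without WT TFH replicate 3 (0.052) or cKO TFH replicate 2 (0.055). Its interaction of -1.72 ± 0.46 (0.024) did not pass without WT non-TFH replicate 3, cKO non-TFH replicate 3 or cKO TFH replicate 2 (0.058, 0.061 and 0.056). Rps4x read 517, 500.3 and 420.0 FPKM in the WT TFH libraries, and the cKO TFH libraries read 687, 617 and 651. It moved the other way with cKO (0.45 ± 0.08, adjusted p = 0.0021).

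Rpl22, which has the copy Rpl22l1 and whose protein is known to repress it, was uneven. It read 319, 342 and 361 FPKM in WT non-TFH, 712, 106 and 113 in cKO non-TFH, 37.8, 37.0 and 33.3 in WT TFH and 44.8, 75.6 and 147 in cKO TFH libraries. cKO non-TFH replicate 1 stood apart. Without it the cKO fall in non-TFH cells, the cKO rise in TFH cells and the interaction of Rpl22 passed (adjusted p = 0.015, 0.03 and 0.0056), and with it none did. Rpl22l1 fell from 525 to 255 FPKM between WT non-TFH and WT TFH cells (-1.03), in the same direction as Rpl22 (-3.20 ± 0.68). Rpl3 and Rpl39, whose copies Rpl3l and Rpl39l were under the filter, changed by -1.35 and -2.09 between these groups.

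Some members could not be measured cleanly. Of the members, 6 shared entries with other genes, among them Rpl30, Rpl26, Rpl34 and Rps27. The genomic interval of the entry was the same in every library for 61 of the 82 members. Among the others, Rps19 had 10 different intervals, Rps4x 8, Rps15a 7, Rplp1 4, Rpl14 3, and Rplp0 and Rps26 2 each. Coordinates printed for the gene of a member are those of an interval listed most often. Rpl10, Rpl36a, Rpl39 and Rps4x lacked WT non-TFH replicate 1, which had no values for X-linked genes, and Rpl23, Rps18, Rps26 and Fau lacked another library. The fit used the remaining libraries. Ribosomal proteins have many processed pseudogenes, and no source used here states how shared reads were assigned. The spread within a group was under that of most genes, with median coefficients of variation of 3.7, 7.2, 7.8 and 9% against 9.5, 9.9, 21.6 and 18.3% over all tested features in WT non-TFH, cKO non-TFH, WT TFH and cKO TFH. It passed 30% in some group for 13 members. In cKO TFH cells it was highest for Rps15a (81.8%), which read 747, 41.9 and 929 FPKM.

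Genes tied to the ribosome were read from lists set by function, with earlier results of these data known. The counts stand beside shares over all tested features of 35.5% higher and 32.1% lower in WT TFH against non-TFH cells, 15.7% and 15.1% with cKO in TFH cells, and 11.8% and 8.59% with cKO in non-TFH cells. Of 20 tested translation factors and other genes with TOP mRNAs, 16 fell and 2 rose in WT TFH against non-TFH cells, a median of -0.87 that kept its sign under every scaling. Eef1b2, an exchange factor of elongation, Tpt1, an abundant growth-linked protein, and Eif3f, an initiation factor subunit, fell most (-3.26, -2.92 and -2.55). With cKO 14 of 20 rose in TFH cells (median 0.41) and 7 fell in non-TFH cells (median -0.19). After quantile normalization 6 rose and 1 fell in TFH cells (median 0.22) and 4 fell in non-TFH cells. Eef1a1, the main elongation factor, had means of 6367 FPKM in WT non-TFH, 5001 in cKO non-TFH, 1887 in WT TFH and 2296 in cKO TFH cells. With cKO it fell in non-TFH cells (-0.35) and rose in TFH cells (0.28). Tpt1 fell with cKO in non-TFH cells (-0.43) and was at -0.11 in TFH cells.

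Mitochondrial ribosomal proteins, which translate the few proteins encoded in mitochondrial DNA, went the other way between cell types. Of 72 tested, 48 rose and 4 fell in WT TFH against non-TFH cells (median 0.75), against 35.5% and 32.1% of all tested features. In cKO mice 59 rose and 2 fell (median 1.22), against 33.5% each way, and both medians kept their sign under every scaling. Mrpl27, Mrpl17 and Mrps36 rose most in WT mice (2.73, 2.47 and 2.44), Mrpl27 with 1 WT non-TFH library listed at 0. With cKO, 30 rose in TFH cells (median 0.41, 17 after quantile normalization), while in non-TFH cells 4 rose and 2 fell (median 0.04). Cytoplasmic and mitochondrial ribosomal protein genes thus had medians of opposite sign between cell types and of the same sign with cKO in TFH cells.

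Of 33 tested genes that control ribosomal protein synthesis, 17 fell and 8 rose in WT TFH against non-TFH cells, where 32.1% and 35.5% of all tested features did. Rps6ka3, a kinase of the RSK family, Ddit4, an inhibitor of mTOR, and Eif4ebp2, a repressor of cap-dependent translation, fell most (-3.39, -3.04 and -2.94), and Cdkn1a, a p53-induced cell cycle inhibitor, and Eif4ebp1, a relative of Eif4ebp2, rose most (2.28 and 1.97). With cKO 3 rose and 1 fell in each cell type, smaller shares than over all tested features. Cdkn1a and Ddit4 rose in both, Cdkn1a by 1.74 in non-TFH and 3.53 in TFH cells, and Ddit4 by 1.0 and 1.19. Cdkn1a read 0.114, 0.191 and 0.166 FPKM in WT and 3.54, 3.83 and 1.63 in cKO non-TFH libraries. Max, the partner of Myc, rose in TFH cells (1.10) and Tsc1, an inhibitor of mTOR signalling, fell there (-0.68). Of 17 tested assembly chaperones, 7 rose and 3 fell in WT TFH against non-TFH cells, 5 rose and 1 fell with cKO in TFH cells, and 1 fell in non-TFH cells. The share of chaperones that rose in WT was near that of all features. It grew to 11 genes without scaling, and 1 rose with cKO in TFH cells after quantile normalization. Among 23 other initiation factors 8 rose and 7 fell in WT TFH against non-TFH cells, shares like those of all features, with a median of -0.13 that became 0.23 without scaling. With cKO in TFH cells 6 rose and 1 fell, and 3 rose after quantile normalization.

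Among ribosomal protein genes that the name rule missed, 8 were tested. Rps3a1, a 40S protein, fell by 1.8 on the log2 scale in WT TFH against non-TFH cells. Rpl36al, a copy of Rpl36a, was at -0.06 in that comparison and rose with cKO in TFH cells (0.61). The features outside the rule whose levels were most like the mean of the members over the 12 libraries were C330021F23Rik, Rps3a1, Gnb2l1, Rpl31-ps12 and Eef1a1, with Pearson correlations of 0.992, 0.988, 0.987, 0.985 and 0.984. These are descriptions over libraries that fall into 4 groups. Rpl31-ps12 is a pseudogene of a member, and its reads may come from Rpl31.

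Members with and without the CCGGAAG match had nearly the same median change with cKO, 0.34 and 0.35 in TFH cells and -0.37 and -0.42 in non-TFH cells. Between WT TFH and non-TFH cells their medians were -1.54 and -1.90. Members with a pyrimidine start at the annotated base had a median of -1.62 in that comparison and the others -1.81. Rps21 itself, with 2 matches, read 3018, 3001 and 3150.0 FPKM in WT non-TFH and 461, 428 and 419.6 in WT TFH libraries (-2.81 ± 0.10, adjusted p = 9.5e-10). No test was run between these classes.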

How the data were processed

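RNA-seq libraries were made with a stranded poly(A) kit, per the labels' protocols. The deposited values are FPKM per gene from 1 Cufflinks table per library, per the file headers. Tools named in the submitters' processing notes are Cufflinks and Cuffdiff, TopHat and TopHat2, Bowtie and Bowtie2, cutadapt and FastQC, with mm10 as the build. No source used here states their settings. The tables hold no counts, and depth was estimated from confidence bounds at unnamed loci of at least 1500 bp.

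Genes listed alone in 2 or more libraries per group were kept single, and the others stayed in a joint feature. Small RNA names nested in a member's entry were dropped, a choice made after values were seen. FPKM were scaled by the median ratio over 7213 features (factors 0.859 to 1.14). The 11114 features that reached 1 FPKM in 3 libraries were tested with limma 3.58.1 (R 4.3.3; trend, robust) on log2(scaled FPKM + 1), a scale that understates changes of low genes, with a mean for each of the 4 groups and Benjamini-Hochberg adjustment at 0.05. The script was tested on simulated data. The main fit did not pair same-numbered replicates, and the labels do not say whether they share a mouse. Correlations of their deviations from group means lay between -0.034 and 0.061.

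Described by name were members of fixed role or with a second copy, the 5 largest called rises and falls of each comparison, the 3 highest and lowest, and those missing or sharing an entry. Some genes under these rules are not reported here. The members, lists and rules were chosen with earlier results of these data known. Promoters were read from RefSeq. Python 3.11.15, pandas 2.3.3, numpy 2.4.6 and matplotlib 3.10.9 were used. No motif test was run. Alternatives covered pseudocount, filter, scaling, weights, libraries, entries and the replicate block.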

Additional observations from a re-analysis of the deposited data

Results flagged for a closer look

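By limma's interaction test the cKO changes of both cell types differed in 62 of 78 members towards higher and 1 towards lower values in TFH cells. Over all tested features 6.83% passed towards higher and 10.6% towards lower. Only 8 of these 63 calls held in every alternative run. Quantile normalization turned the signs of Rpl11 (-0.057) and Rps14 (-0.062), which are named below. By role and size these include Rpl14 (log2 difference 1.22), Rps3 (1.14), Rpl36a (1.12), Rplp0 (1.10), Rps19 (0.99), Rps6 (0.86), Rps27a (0.73), Rpl38 (0.64), Rplp2 (0.61), Rpl41 (0.58), Rpl11 (0.55), Rps27l (0.52) and Rps14 (0.52). Rps4l is the member with a difference towards lower (-1.72), at levels near 1 FPKM. The difference of Rps14 did not pass without WT non-TFH replicate 1 or 2 (adjusted p = 0.067 and 0.051), cKO non-TFH replicate 2 or 3 (0.061 and 0.064), WT TFH replicate 3 (0.054) or cKO TFH replicate 3 (0.054). That of Rps4l did not pass without WT non-TFH replicate 3, cKO non-TFH replicate 3 or cKO TFH replicate 2 (0.058, 0.061 and 0.056). Groups of 3 libraries were not tested for outlying samples.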

How the results depend on the processing

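Of the members called, 13 of 47 (cKO in TFH), 8 of 52 (cKO in non-TFH), 62 of 74 (TFH against non-TFH, WT), 57 of 64 (the same, cKO) and 8 of 63 (interaction) lost their call in none of the 24 alternatives. The run with only the groups of a comparison did not cover the interaction. A member missing from a run could not lose its call there. Quantile normalization changed most. It makes every library's distribution the same. The members fill much of the top of the non-TFH distributions, and whether this has a part in the changes was not tested. Quantile normalization gave 14 members higher and 4 lower with cKO in TFH cells (median 0.11), and 6 higher and 7 lower in non-TFH cells (median -0.046). It gave 7 higher in TFH against non-TFH cells in WT (median -1.05) and 9 in cKO mice, and 8 higher and 0 lower in the interaction (median 0.16). How many of all tested features passed under it was not counted. Signs turned under it for Rpl12 (-0.27), Rpl3 (-0.054), Rps16 (-0.36) and Rps27a (-0.084) with cKO in TFH cells, and for Rpl38 (0.067), Rpl41 (0.41), Rplp2 (0.10), Rps14 (0.11), Rps26 (0.022) and Rps27 with Rps27rt (0.005) in non-TFH cells. They also turned for Rpl13 (0.76), Rpl41 (0.84) and Rps19 (0.033; 0.49 in cKO) between cell types, and for Rpl11 (-0.057), Rpl23 (-0.088), Rpl3 (-0.19) and Rps14 (-0.062) in the interaction. Without scaling, 4 members were higher in TFH cells in WT (median -1.33; Rpl13 0.22, Rpl41 0.20) and 6 in cKO mice (median -0.68). The median of all features then moved by 0.37 and 0.27. A filter at 5 FPKM removed Rps4l, leaving 0 lower with cKO in TFH cells, 1 higher between WT cell types and 0 lower in the interaction. Array weights gave 29 higher and 0 lower with cKO in TFH cells and 0 lower in the interaction. Reading small RNA names as genes, chosen after seeing the data, gave a median of -1.796 in WT. The cause of the changes under array weights was not tested.

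Leaving out each library gave 31 to 49 higher and 0 to 1 lower with cKO in TFH cells, 39 to 51 lower in non-TFH cells, medians of -1.78 to -1.63 between WT cell types, and 58 to 63 higher and 0 to 1 lower in the interaction. With the replicate block, 41 members were higher and 1 lower with cKO in TFH cells and 43 lower and 1 higher in non-TFH cells, 71 were lower between WT cell types and 60 between cKO cell types, and 56 were higher in the interaction. The labels do not say whether same-numbered replicates share a mouse. Depth is an estimate, so no counting intervals are given.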
